A study of Mus musculus with 4 samples.

Results

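Transcripts of the Olig factors and of other regulators of the oligodendrocyte lineage were examined in cultured neural stem cells. The members were 10 genes, namely Olig1, Olig2, Nkx2-2, Nkx6-2, Sox8, Sox10, Myt1, Myrf, Zfp488 and Cspg4, and they were measured by every probe set that the platform's annotation assigns to 1 of them alone. The annotation gave 11 such probe sets for 8 of the 10 genes, among 12393 genes and 22690 probe sets in all. Sox8 and Zfp488 had no named probe set and were not analysed here.

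The knockout cells were labelled Olig1 KO and came from 3 samples, numbered here as replicates 1, 2 and 3. The titles carry the numbers 37 and 38 for replicates 2 and 3. They were set against 1 wild-type sample. All 4 samples were neural stem cells taken at embryonic day 14.5 from the ganglionic eminences, the ventral forebrain swellings, of C57/Bl6 mice. They had been kept in EGF-containing medium free of serum, and each was hybridised to 1 Affymetrix array. The knockout allele and the number of embryos per sample were not described in the labels, which also did not say whether the KO samples were separate cultures. The p-values therefore reflect the spread of these samples alone, and that spread may be technical in part. It also includes a difference in sex-linked genes, given below, between KO replicate 1 and KO replicates 2 and 3. With 1 wild-type array there is no spread for that group, and the KO arrays' spread stood in for it.

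Oligodendrocytes of the ventral forebrain arise from progenitors that turn on the basic helix-loop-helix (bHLH) factors Olig1 and Olig2 under hedgehog signalling. Olig2 is needed for the lineage to be specified, while Olig1 acts mainly later, in maturation and in the repair of myelin. Precursors then express Sox10, Myt1, Cspg4 and, close to differentiation, Nkx2-2, and Myrf turns on the myelin genes in cells that leave the cell cycle.

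The deposited values are MAS5 signals, a linear brightness per probe set. A signal is called above background here where it exceeded the highest of 27 bacterial control probe sets without a target on the same array. That limit was 21.3, 39.99 and 87.8 in KO replicates 1, 2 and 3 and 30.5 in wild type. Differences are given as KO minus wild type on the scale of log2(signal + 14.4), which understates the change of dim genes. Each value is tested with limma over 7436 genes, the 40% dimmest having been left out, or over all 22626 probe sets where a probe set is named as such.

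The 4 arrays did not sort by genotype alone. The SD of the log2 differences between 2 arrays was 0.357, 0.493 and 0.613 for wild type with KO replicates 1, 2 and 3. Among the KO arrays it was 0.458 for replicates 1 and 2, 0.653 for 1 and 3 and 0.506 for 2 and 3. KO replicate 1 was thus nearer to wild type than to the other KO arrays. Xist, which coats the inactive X chromosome, gave 8472, 160.9 and 46.5 in KO replicates 1, 2 and 3 and 9480 in wild type. The Y-linked Eif2s3y gave 1.53, 654 and 1160 in the KO arrays and 0.61 in wild type. Spiked-in bacterial and phage controls were at 0.90, 1.89 and 2.75 times wild type in KO replicates 1, 2 and 3 (median of 18 probe sets). The beta-actin 3'/5' ratio, which increases as RNA degrades, was 1.251, 1.304 and 1.82 in the KO arrays and 1.11 in wild type. That of Gapdh was 0.794, 1.03 and 0.842 in the KO arrays and 0.759 in wild type, highest in KO replicate 2. Only KO replicate 1 thus shares its sex-linked and control levels with wild type, and the kept members are also given below for that pair of single arrays. Of 8 neural stem cell markers, 8, 8 and 7 were above background in KO replicates 1, 2 and 3 and 8 in wild type. In 1 of the 8 every KO array was above wild type and in 2 every one was below, beside 23.2% and 20.6% of all kept genes.

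Of the 8 genes with a probe set, 6 were above background on all 4 arrays with at least 1 probe set, namely Olig1, Olig2, Nkx2-2, Sox10, Myt1 and Cspg4. The same 6 passed the filter on dim genes. Nkx6-2 and Myrf were above background on no array. The remaining 3 probe sets, a pair for Sox10 and 1 for Cspg4, were above background on some arrays.

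**Figure D1:**
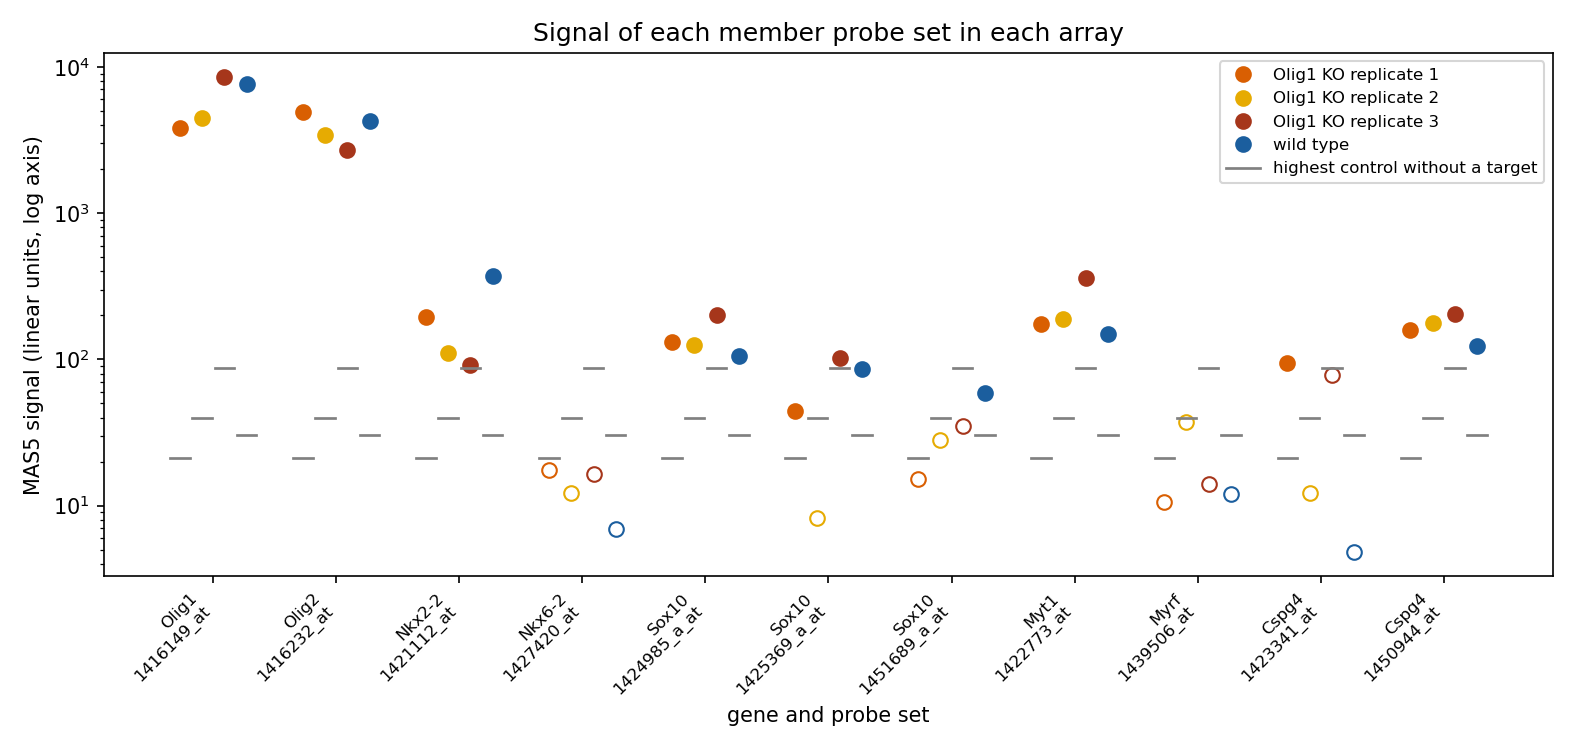
MAS5 signal (log axis) of the 11 member probe sets in KO replicates 1, 2 and 3 and in wild type, with the highest bacterial control without a target on each array as a grey bar; open circles do not exceed it. Olig1 and Olig2 lie at 2694 or more on every array, while Nkx6-2 and Myrf lie below the control on every array.

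No member passed the test. At an adjusted p under 0.05, limma called none of the 7436 kept genes, neither higher (0, or 0%) nor lower (0, or 0%), while 168 (2.26%) had an unadjusted p under 0.05. Among the 6 kept members that number was 1, Nkx2-2. In 3 of the 6, Sox10, Myt1 and Cspg4, every KO array lay above wild type, and 23.2% of all kept genes did so. In 1 of the 6, Nkx2-2, every KO array lay below wild type, against 20.6% of all kept genes. The median log2 difference of the 6 was 0.094, beside -0.00010 for all kept genes. No kept member lay at least 1 log2 unit from wild type in every KO array, which 12 kept genes (0.161%) did above wild type and 9 (0.121%) below it. None had a mean difference of at least 1 above wild type, where 66 kept genes (0.888%) stood.

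All KO arrays lay above wild type in 5 of the 11 member probe sets (25.1% of all 22626) and below it in 2 (20.5%), and the other 4 had KO arrays on both sides. Among the 6 above background on all arrays, 3 lay above (24% of the 13171 such probe sets) and 1 below (21.7%). Limma called 0 of all probe sets at an adjusted p under 0.05, and 622 (2.75%) had an unadjusted p under 0.05.

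**Figure D2:**
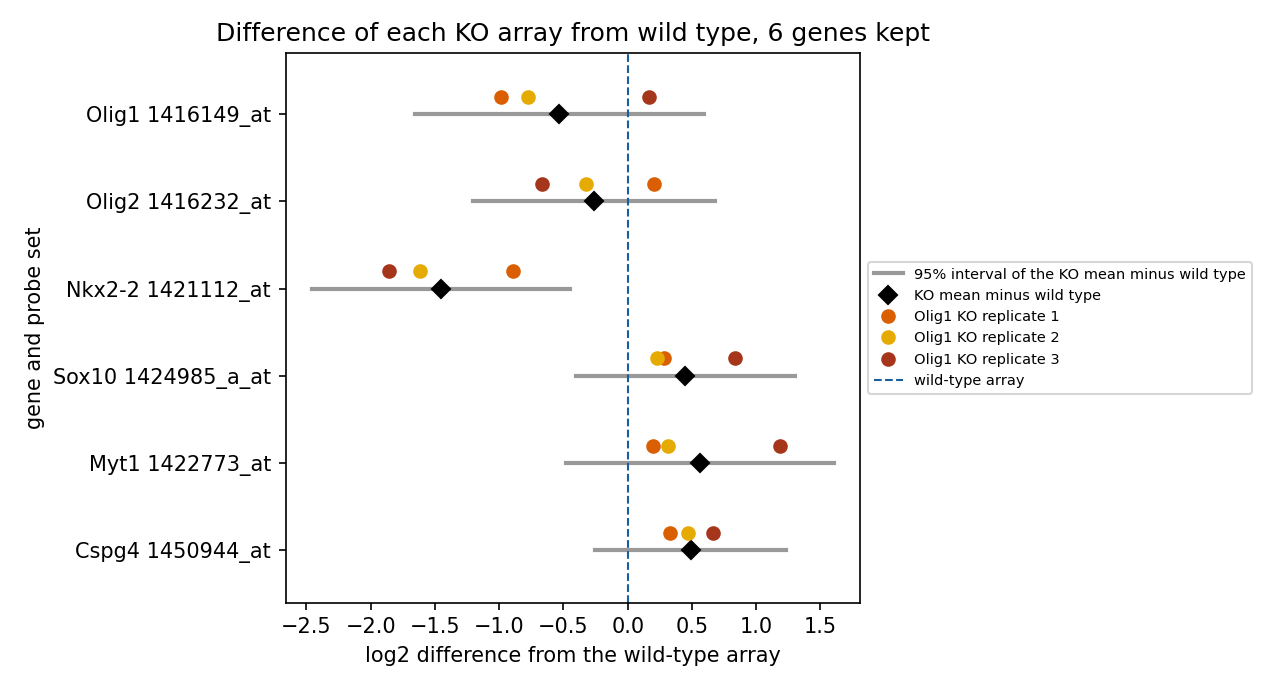
Log2 difference from the wild-type array for the 6 kept genes: coloured points are single KO arrays, the diamond is their mean minus wild type and the grey bar is its 95% limma interval. The KO arrays of Olig1 and Olig2 fall on both sides of wild type, and the Nkx2-2 interval alone lies wholly below 0.

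Olig1, the targeted gene, had a clear signal in every array labelled KO. It was 3840, 4438 and 8548 in KO replicates 1, 2 and 3, against 7618 in wild type. The KO arrays overlapped wild type, with replicates 1 and 2 below it and replicate 3 above it. The mean difference was -0.53 (SE 0.48, 95% interval -1.66 to 0.59, limma adjusted p = 0.99997), which is less than the range of 1.15 among the KO arrays. The size depended on single arrays: the difference was -0.31 without KO replicate 1 (limma adjusted p = 0.90) and -0.88 without KO replicate 3 (limma adjusted p = 0.99986). Between KO replicate 1 and wild type alone it was -0.99, on 2 single arrays without a test. Quantile normalization, which gives all arrays the same distribution of signals, gave -0.73 (limma adjusted p = 0.998). The position of the probe set relative to the part deleted in the allele is not known here, so these signals do not check the genotype, and the groups are named by their labels throughout.

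Olig2, the paralogue that specifies the lineage, lies next to Olig1 on chromosome 16, with no protein-coding gene between them in RefSeq. Its signal was 4939, 3411 and 2694 in KO replicates 1, 2 and 3, against 4278 in wild type. Here replicate 1 was above wild type and replicates 2 and 3 below it, so the groups overlapped again. The difference of -0.26 (SE 0.40, 95% interval -1.20 to 0.68, limma adjusted p = 0.99997) was smaller than the KO range of 0.87. It was -0.50 without KO replicate 1 and -0.060 without KO replicate 3. Between KO replicate 1 and wild type the sign was the opposite, at 0.21. The KO array with the highest Olig1 signal, replicate 3, had the lowest Olig2 signal, and replicate 1 had the reverse. Olig3, the third member of the family, which marks the dorsal hindbrain and spinal cord, gave 29.95, 25.8 and 25.5 in the KO arrays and 25.2 in wild type, above background in KO replicate 1 only.

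By the smallest distance between centred log2 values over the 4 arrays, the kept genes nearest to Olig1 were Cst3 (0.15), Nrarp (0.15) and Kcnk1 (0.16). Cst3, a secreted protease inhibitor, gave 3567, 4215 and 7921 in the KO arrays and 6318 in wild type. The likeness rests on 4 arrays and is a description.

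Nkx2-2, a homeodomain factor of precursors about to differentiate, showed the largest difference among the 6 kept members, each read by its brightest probe set. Its signal was 193.4, 111.3 and 91.99 in KO replicates 1, 2 and 3, against 370.9 in wild type. All 3 KO arrays were below wild type and above background, replicate 3 by a narrow margin over its limit of 87.8. The difference was -1.45 (SE 0.43, 95% interval -2.46 to -0.45), or 0.365 times wild type, and exceeded the KO range of 0.97. It did not pass the test (limma adjusted p = 0.99997). Among the 7436 kept genes it ranked 12 from the lowest, and 88 genes (1.18%) were lower by at least 1 log2 unit.

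The part of the Nkx2-2 difference found within the pair of like arrays was -0.89, between KO replicate 1 and wild type. KO replicates 2 and 3 differed from wild type by -1.62 and -1.86, and these are the arrays with other sex-linked and control levels. Without KO replicate 1 the difference was -1.74 (limma adjusted p = 0.75), without replicate 2 it was -1.37 and without replicate 3 it was -1.25 (limma adjusted p = 0.83). All values thus lay below wild type, with the smallest on the pair of like arrays. Msi1, an RNA-binding protein gene and 1 of the 8 neural stem cell markers, stood in the same order. It gave 223.2, 87.2 and 71.0 in KO replicates 1, 2 and 3 and 308.3 in wild type (difference -1.34), with KO replicate 3 at background. Its second probe set was at background on all arrays. The median difference of the 8 markers was -0.080, with 2 lower and 1 higher in every KO array. The part of Msi1 in the Nkx2-2 result was not tested. In these bulk cultures, fewer cells with a transcript and less transcript per cell cannot be told apart.

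The kept genes whose pattern lay nearest to Nkx2-2 over the 4 arrays were Fkbp8 (distance 0.18), Trim35 (0.20) and Inafm2 (0.28). Fkbp8, a mitochondrial prolyl isomerase, gave 1210, 752 and 674 in the KO arrays and 2084 in wild type. Its KO arrays stood in the same order as those of Nkx2-2, as did those of the others. These genes were picked for their likeness over the same 4 arrays, so the shared order is a description.

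bHLH factors bind E-boxes, written CANNTG, a motif that reads the same on both strands. The RefSeq promoter table (GRCm38.p6) held 9 promoters for 7 of the 10 members, without Olig1, Sox10 and Myrf. In the 250 bases before each start, 66.2% of all 32851 promoters held at least 1 E-box, 12.2% at least 3 and 33.8% none. Nkx2-2, the kept member furthest below wild type in the KO arrays, held 3. Cspg4 held none, and Myt1, the kept member furthest above wild type, held 0, 2 and 1 at its 3 starts, so the counts are not set against the differences. Nkx2-2 and Cspg4 are shown as a window with the most E-boxes among the members and one with none, with E-boxes in capitals.
Nkx2-2, chr2:147186403-147186652, minus strand: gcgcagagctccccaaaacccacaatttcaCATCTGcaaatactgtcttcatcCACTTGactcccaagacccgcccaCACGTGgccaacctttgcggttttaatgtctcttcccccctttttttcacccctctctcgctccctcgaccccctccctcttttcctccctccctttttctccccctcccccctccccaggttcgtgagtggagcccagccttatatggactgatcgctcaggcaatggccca
Cspg4, chr9:56864854-56865103, plus strand: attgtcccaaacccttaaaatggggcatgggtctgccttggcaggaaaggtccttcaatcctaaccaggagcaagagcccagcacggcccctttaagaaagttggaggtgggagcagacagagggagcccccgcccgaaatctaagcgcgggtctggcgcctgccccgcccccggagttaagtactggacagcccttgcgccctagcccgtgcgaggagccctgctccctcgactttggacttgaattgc
The 3 E-boxes of Nkx2-2 lie in the upstream part of the window. The Olig2 window held none. Nkx6-2 and Sox8 held 1 each and Zfp488 none. A match is a run of letters and not a measured binding site.

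Nkx6-2, a homeodomain repressor of ventral patterning that is also expressed in oligodendrocytes, was not measurable. Its signal was 17.6, 12.3 and 16.4 in the KO arrays and 6.95 in wild type, below background on all 4, so the order of these values carries no fold change.

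Sox10, the HMG-box factor that drives precursors towards myelination, was read by 3 probe sets that disagreed. The brightest gave 131.5, 126.2 and 200.1 in KO replicates 1, 2 and 3, against 105.7 in wild type. All KO arrays were above wild type, but the difference of 0.45 (SE 0.36, 95% interval -0.403 to 1.2997, limma adjusted p = 0.99997) was smaller than the KO range of 0.61. Without KO replicate 3 it was 0.25, and on the pair of like arrays it was 0.28.

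The other Sox10 probe sets pointed lower in the KO arrays. A second probe set gave 44.1, 8.27 and 102.2 in the KO arrays and 86.3 in wild type, with replicate 2 at background and the groups overlapping (difference -0.91, SE 0.91, limma adjusted p = 0.9997 over all probe sets). The third gave 15.2, 28.2 and 34.8 in the KO arrays, all at background, and 59.0 in wild type. Wild type was at least 1.26-fold higher there, with each KO array set at its background limit, although the limit of KO replicate 3 itself lay above the wild-type signal. No common direction for Sox10 was therefore measured.

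Sox10 also marks neural crest and Schwann cells. Of 8 markers of those cells fixed in a list, 6 had a probe set, of which 5, 4 and 3 were above background in KO replicates 1, 2 and 3 and 4 in wild type. Their summed signal, with values at background included as in all such sums below, was 323 to 562 in the KO arrays and 226 in wild type. Foxd3, a defining crest factor, was above background on no array. Tfap2a, a transcription factor of the crest and ectoderm, gave 91.9, 189.6 and 215.6 in the KO arrays and 49.3 in wild type (difference 1.42, SE 0.47, limma adjusted p = 0.99997). Its other 2 probe sets did not show this, at 0.041 and -0.21. Mitf, the melanocyte factor, gave 94.7, 154.9 and 129.1 in the KO arrays and 52.2 in wild type, and its second probe set did not exceed background on any array. The others had KO arrays on both sides of wild type, so the list had no common direction. Pax3 gave 30.5, 110.2 and 121.6 in the KO arrays and 40.95 in wild type. Dct gave 38.6, 46.1 and 11.3 in the KO arrays and 43.2 in wild type, and Ngfr 63.0, 23.6 and 18.95 against 29.9. Dct was at background in KO replicate 3, and Ngfr in KO replicates 2 and 3 and in wild type. The part of the crest markers in the Sox10 values was not tested.

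Myt1, a zinc finger factor of precursors, gave 173.9, 189.6 and 358.9 in KO replicates 1, 2 and 3, against 149.8 in wild type. All KO arrays were above wild type, but replicates 1 and 2 only by 0.20 and 0.31 on the log2 scale, and replicate 3 by 1.18. The difference was 0.57 (SE 0.44, 95% interval -0.48 to 1.61, limma adjusted p = 0.99997), below the KO range of 0.99. Without KO replicate 3 it was 0.26, so that array carried more of it than the others together. KO replicate 3 also had the highest beta-actin, though not the highest Gapdh, 3'/5' ratio (1.82 and 0.842), the highest spiked controls (2.75 times wild type) and the highest background limit (87.8), and their part in the Myt1 value was not tested.

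Myrf, the membrane-bound factor that activates myelin genes, was below background on all 4 arrays. Its signal was 10.6, 37.5 and 14.0 in the KO arrays and 12.1 in wild type. The value of KO replicate 2, the only one that stands out, was still under its limit of 39.99.

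Cspg4, which encodes the NG2 proteoglycan on the surface of precursors and pericytes, had the least spread of the measured members. The brighter of its probe sets gave 159.5, 176.7 and 204.8 in KO replicates 1, 2 and 3, against 123.7 in wild type. All KO arrays lay above wild type, by 0.33, 0.47 and 0.67 on the log2 scale. The difference of 0.49 exceeded the KO range of 0.33 but did not pass the test (SE 0.32, 95% interval -0.25 to 1.23, limma adjusted p = 0.99997). The value for the pair of like arrays, 0.33, had the same sign.

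The other Cspg4 probe set gave 94.6, 12.3 and 77.8 in the KO arrays and 4.79 in wild type. It was above background in KO replicate 1 only. In that array the signal was at least 2.42-fold higher than in wild type, with wild type set at its limit. KO replicates 2 and 3 were at background, so this probe set gives no direction for the KO arrays together. Averaging both probe sets, background values included, gave a difference of 1.12 (limma adjusted p = 0.9996).

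As pericytes also carry NG2, their markers are given beside it. Of 8 pericyte markers, 5, 4 and 2 were above background in KO replicates 1, 2 and 3 and 5 in wild type, with a summed signal of 782 to 1014 in the KO arrays and 1084 in wild type. The markers Pdgfrb, Abcc9 and Anpep were above background on no array. Rgs5 was above it in KO replicates 1 and 2 and in wild type, and Kcnj8 in KO replicate 1 and in wild type. The sum was mostly Notch3 and Acta2. Notch3 gave 376.0, 356.2 and 491.6 in the KO arrays and 445.3 in wild type. Acta2 gave 244.7, 441.1 and 371.9 in the KO arrays and 444.6 in wild type.

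**Figure D3:**
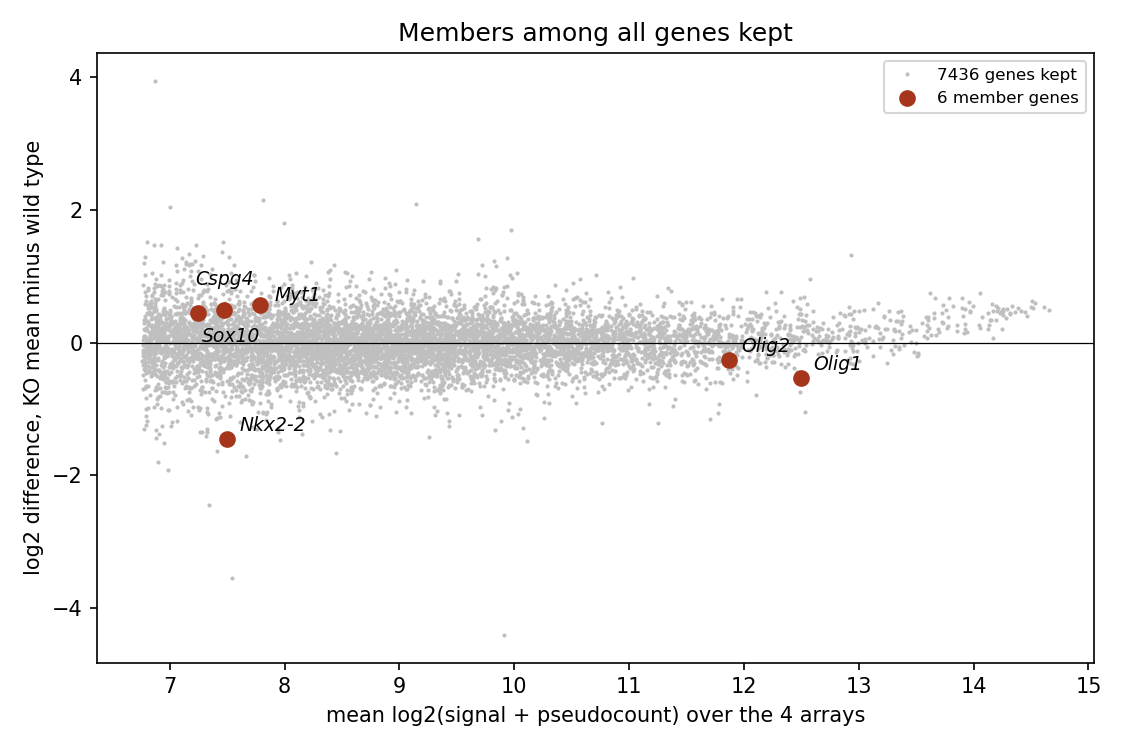
Log2 difference of KO from wild type against mean log2(signal + pseudocount) for the 7436 kept genes (grey) and the 6 kept members (red). Nkx2-2, at -1.45, lies near the lower edge of genes of like brightness, and Olig1, at -0.53, lies below most bright genes, which drift upward at the right.

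Genes that act with the members were described from 4 lists. Among 13 kept precursor genes other than the members (16 measured of 20 listed), limma called 0 at an adjusted p under 0.05 and 0 had an unadjusted p under 0.05. In 5 of the 13 every KO array was above wild type and in 0 every one was below, beside 23.2% and 20.6% of all kept genes. The list's median difference was 0.21, made up of medians of 0.34, 0.33 and -0.19 in KO replicates 1, 2 and 3.

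Zeb2, a zinc finger repressor that relieves inhibition of differentiation, gave 264.8, 650 and 474.6 in the KO arrays and 201.4 in wild type (difference 1.06, SE 0.49, limma adjusted p = 0.99997). Ptprz1, a receptor phosphatase of precursors and radial glia, differed by 0.48 with its brightest probe set and by -0.22 and -0.27 with the others. Bcan, which encodes the matrix proteoglycan brevican, gave 2281, 1751 and 1610 in the KO arrays and 1386 in wild type. Dll3, a Notch ligand, differed by -0.57, with KO replicate 3 above wild type. Pdgfra, the growth factor receptor that defines precursors, was left out by the filter and was looked up after its values were seen. It gave 52.6, 9.15 and 65.8 in the KO arrays and 71.5 in wild type, at background in KO replicates 2 and 3.

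Of 15 measured ventral specification and hedgehog genes, only 4 were kept, and limma called 0 of them. In 1 of the 4 every KO array was above wild type (23.2% of all kept genes) and in 0 below it (20.6%). Their median difference was -0.071, with medians of 0.18, -0.059 and -0.44 in KO replicates 1, 2 and 3. The ventral homeobox genes Nkx2-1, Nkx6-1, Nkx2-9, Gsx2 and Dlx1 and the ligand gene Shh were above background on no array. Ptch1, the hedgehog receptor and a target of the pathway, gave 777.9, 631.8 and 1046 in the KO arrays and 622.6 in wild type (difference 0.36, SE 0.37, limma adjusted p = 0.99997), but its other probe set differed by -1.28 and was at background in KO replicate 3. Smo, the signal transducer, differed by -0.011 and by -0.61 with its 2 probe sets. Sox9, which primes progenitors for glial fates, differed by -0.50 and by 0.38, so its probe sets disagreed. Pax6, a dorsal progenitor factor, differed by -0.13.

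Among the 11 kept genes of bHLH partners, competitors and Id inhibitors, which shape what Olig factors can dimerise with, the median difference was -0.29, with medians of -0.25, -0.20 and -0.58 in KO replicates 1, 2 and 3. In 6 of the 11 every KO array was below wild type (20.6% of all kept genes) and in 2 every one was above (23.2%), and limma called 0, with 0 at an unadjusted p under 0.05. Hes6, a bHLH factor of neural differentiation, gave 999, 866 and 957 in the KO arrays and 1437 in wild type, a difference of -0.61 (SE 0.31, limma adjusted p = 0.99997) and of -0.58 with its other probe set. Hes5, the Notch target that holds progenitors back, gave 180.8, 156.9 and 411.9 in the KO arrays and 453.8 in wild type (difference -0.95, SE 0.53). Its other probe set differed by -0.88, with KO replicate 3 above wild type. Id1, an inhibitor of bHLH dimers, gave 736, 715 and 524.5 in the KO arrays and 937 in wild type. Tcf4, an E protein that pairs with bHLH factors, gave 3987, 4950 and 4296 in the KO arrays and 3010 in wild type (difference 0.54, SE 0.31). Of its other 5 probe sets, 4 differed by 0.23 to 0.52 and the fifth by -0.84, at background in KO replicate 3.

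Of 13 measured myelin genes, 6 were kept, and limma called 0 of them (0 at an unadjusted p under 0.05). In 1 of the 6 every KO array was above wild type (23.2% of all kept genes) and in 1 below it (20.6%). Their median difference was -0.29, with medians of -0.096, -0.66 and 0.28 in KO replicates 1, 2 and 3. Over these 6 genes the arrays thus did not share a direction. Qk, which encodes the RNA-binding protein quaking, gave 4172, 4471 and 4575 in the KO arrays and 2774 in wild type. Its difference was 0.66 with this brightest probe set and by -0.73 to 0.12 with the other 3. Aspa, the aspartoacylase of oligodendrocytes, gave 123.0, 173.2 and 305.0 in the KO arrays and 331.3 in wild type. Mbp, the myelin basic protein gene, was read by 8 probe sets that differed by -1.12 to 1.45. The brightest of them gave 53.2, 123.7 and 224.4 in the KO arrays and 173.5 in wild type. Cnp, an enzyme of myelin, differed by 0.27, and by -0.40 and -0.58 with its other probe sets. Mog and Mobp, genes of mature myelin, were above background on no array. Mag and Cldn11, left out by the filter, were above background in every KO array and at background in wild type. Mag gave 89.9, 91.0 and 137 in the KO arrays and 17.5 in wild type. Cldn11 gave 37.45, 62.4 and 101.6 in the KO arrays and 26.2 in wild type. Ugt8a and Gjc3, also left out, had KO arrays on both sides of wild type. Gpr37 was at background in KO replicate 2 and in wild type.

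**Figure D4:**
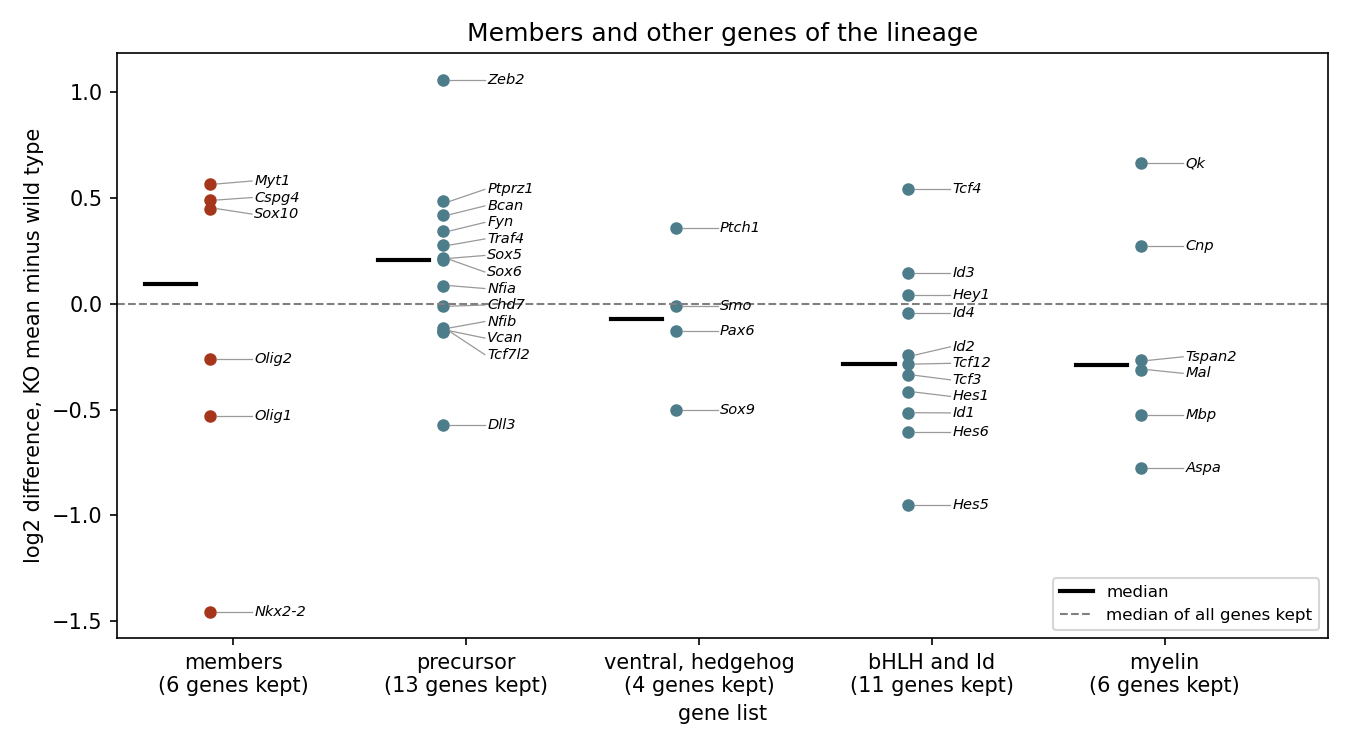
Log2 difference of KO from wild type (KO mean minus wild type) for the kept members and the kept genes of 4 lists, 1 point per gene, with each list's median as a black bar and the median of all kept genes as a dashed line. Nkx2-2 at -1.45 is the lowest and Zeb2 at 1.06 the highest point shown.

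Markers of other cell types were read on the same arrays. Of 7 astrocyte markers, 7, 7 and 6 were above background in KO replicates 1, 2 and 3 and 7 in wild type, with a summed signal of 3041 to 4829 in the KO arrays and 6276 in wild type. Of 8 neuronal markers, 7, 8 and 4 were above background in the KO arrays and 8 in wild type, summing to 1432 to 2161 in the KO arrays and 2570 in wild type. Both sums were lower in every KO array, as was Nkx2-2, and their part in that result was not tested. Of the 6 kept astrocyte markers, 3 were below wild type in every KO array (20.6% of all kept genes) and 0 above it (23.2%). S100b, for example, was above wild type in KO replicate 1 (1925 against 1726) and Aqp4 in KO replicate 3 (428.1 against 309.5). The neuronal sum was mostly Map2, a microtubule protein gene, at 1447, 784 and 593 in the KO arrays and 1766 in wild type. The neuronal markers Tubb3, Gad2 and Syt1 had higher signals in every KO array, those of Gad2 and Syt1 at background in KO replicate 3, so the list had no common direction. Of 8 microglial markers, 5, 4 and 1 were above background in KO replicates 1, 2 and 3 and 1 in wild type, summing to 288.5 to 451.4 in the KO arrays and 245.1 in wild type. P2ry12, a microglial receptor, gave 127.7, 87.0 and 30.5 in the KO arrays and 19.99 in wild type. It was at background in KO replicate 3 and in wild type. Csf1r, the only kept microglial marker, lay on both sides of wild type with its brightest probe set, at 118.8, 200.6 and 176.6 in the KO arrays against 144.1. Another Csf1r probe set, above background on every array, was below wild type in every KO array. It gave 102.6, 83.8 and 142.4 in the KO arrays and 157.1 in wild type (difference -0.49). Its remaining probe set differed by -0.083, at background in KO replicates 1 and 3. C1qa and Ptprc were above background on no array. Of 8 endothelial markers, 5, 4 and 0 were above background in the KO arrays and 4 in wild type, summing to 284.4 to 374.4 in the KO arrays and 357.8 in wild type, and Tek was above background on no array. The endothelial sum of KO replicate 3, 284.4, thus held values at background alone.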

How the data were processed

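Total RNA (6 µg) was labelled with biotin and hybridised to Affymetrix arrays, per the labels' protocols. The authors deposited linear signal intensities computed by MAS5, a method credited to the submitters' processing notes, with 1 value per probe set. The labels name neither a version nor a scaling target. Trimmed means (2% off either end) were 500.2 or 500.3 on every array. The number of arrays limits the precision.

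The members and gene lists were chosen with earlier results of these data known. Of 22690 probe sets, 64 were controls. Symbols came from the platform's annotation (20380 probe sets other than controls had 1 symbol, and of all probe sets 691 had several and 1606 none) and were updated through a RefSeq table. A pseudocount of 14.4, 0.1 times the median of all values, was added before log2. Of a gene's probe sets the one brightest on average stood for it, and the 40% dimmest genes were left out. Genotypes were compared by limma 3.58.1 in R 4.3.3 (lmFit, eBayes, two-sided, Benjamini-Hochberg), with 2 residual and 5.23 prior degrees of freedom. A second fit covered all 22626 probe sets that were not controls. Where a whole group was at background, a bound was computed with each of its arrays at the higher of its signal and its limit. The fit was tested on simulated data of 7436 genes with 200 changed per run. It recovered 2.2% of genes changed by 1 log2 unit, 57.6% at 2 and 93.7% at 3. A gene that was not called is therefore not shown to be unchanged.

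Genes named were the members, the 3 kept genes nearest to Olig1 and to Nkx2-2, Xist and Eif2s3y. Of each of the 4 lists of genes that act with the members, up to 4 kept genes were named by moderated t. That rule was not followed for the cell type markers. The markers named, such as Tfap2a, Mitf, Msi1, Map2, Tubb3, Gad2, Syt1 and P2ry12, were chosen after their values were seen. So were Pdgfra, the myelin genes left out by the filter and the genes at background. The alternatives changed 1 choice at a time: normalization, pseudocount, dim-gene filter, probe set averaging, eBayes options, a block for the array pair, and leaving out each KO array.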

Additional observations from a re-analysis of the deposited data

How the results depend on the processing

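Across 202 repeats of member tests under the alternatives, 199 kept their direction and their side of the threshold and 0 newly passed it. The 3 that turned were Olig2 in both fits (0.21) and Myrf (-0.081), with the array pair as a block, whose estimate equals KO replicate 1 minus wild type. Changing the dim-gene filter or the eBayes options leaves each difference as it was, so no direction could turn there. Both fits also repeat the same probe sets, so the 202 repeats are not separate checks. The adjusted limma p of Nkx2-2 in the gene fit ranged from 0.75 to 0.99999, and its difference from -1.74 to -0.89. No paired analysis was possible because the labels give wild type and KO no shared replicate number; the array pair used as a block comes from the levels on the arrays and not from the labels.

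Leaving out 1 KO array moved the number of genes called from 0 to between 0 and 2, with no member among them, the 2 being called without KO replicate 1. In the probe set fit it stayed at 0. The number of genes at an unadjusted p under 0.05 was 320 with no filter, 305 with only features above background on an array, 110 with the block, 486 without KO replicate 1, 63 without replicate 2 and 327 without replicate 3. For probe sets it was 622 as reported, 324 with 40% left out, 1347 without KO replicate 1 and 344 without replicate 2. With the mean of all probe sets, Sox10 was left out by the filter, and Cspg4 differed by 1.12. Nkx6-2 and Myrf, below background, could not be measured in either group.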
